A study of Homo sapiens with 8 samples.

Results

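The very long genes examined here are 60 broadly studied human genes known to span more than about 300 kb of genome, chosen by that known length and not by signal. The list was drawn up with earlier results of these data known. All 60 had a named probe on the arrays, out of 20503 genes named, and 57 of them were among the 15545 genes tested, because their probe was well above background on both arrays of 1 or more groups. LRP1B, PARD3B and PRKG1 did not reach this level in any group and are named without a change. Of the 57, 36 were well above background on all 8 arrays. A gene that passed only through the group in which it is bright had to be higher there, so counts over the genes that passed are set beside the same counts over all genes that passed the same filter. Gene lengths were not measured here, since the arrays refer to the hg19 build and the gene table at hand to another.

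Total RNA of MDAH and SKOV3 cells, which are established epithelial ovarian cancer lines, was hybridized to 8 single-colour Agilent arrays in order to compare cells silenced for the splicing factor SFPQ with cells that were not. In each line 2 arrays held unsilenced cells, called controls here, and 2 held silenced cells, 1 transduced with the lentiviral shRNA sh-SFPQ#2 and 1 with sh-SFPQ#3. The labels give both controls of a line as carrying the control shRNA, whereas the methods list a parental and a control-shRNA sample, so the controls are treated only as not silenced. The labels give no other treatment and the time after transduction is not given in the sources used here. Stable clones without SFPQ could not be grown, according to the study, so the silenced samples are not clones. The 2 silenced arrays of a line held separately transduced cells, and neither shRNA was repeated within a line. The labels do not say whether the 2 control arrays of a line came from separate cultures. P-values measure only the spread between these arrays.

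Very long genes owe their length to introns, and RNA polymerase II needs a long time to cross them before a complete transcript can be made. SFPQ is an RNA- and DNA-binding protein of the nucleus and of paraspeckles that acts in splicing and transcription, and in neurons and muscle it is known to be needed for the full transcription of long genes. Several of the genes below lie at common chromosomal fragile sites, where long genes and late replication coincide, and their products otherwise serve unrelated purposes, from cell adhesion to mitochondrial enzymes.

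Values are the log2 processed signal of a gene's brightest probe minus the 75th percentile of its array, here called the log2 signal. The 75th percentile of the signal lay between 387 and 496 on 7 arrays and at 244 on the array of MDAH sh-SFPQ#3 cells, and the share of probes well above background ran from 47.7% to 57%. In both lines KRT7, KRT8, KRT18, KRT19, EPCAM and PAX8, markers of epithelium and of ovarian carcinoma, were well above background on all 8 arrays, whereas CDH1, the remaining epithelial marker, was not well above background in unsilenced SKOV3 cells and its changes did not pass in either line (-0.70 in MDAH and 1.49 in SKOV3 cells). WT1 was measured in MDAH cells and was not well above background in unsilenced SKOV3 cells. MUC16 was well above background in silenced SKOV3 cells alone and passed as higher in the average (adjusted p = 0.0395), MSLN was not well above background on any array, and neither were LUM and PDGFRB, markers of fibroblasts, and CD3E, a marker of leukocytes. PECAM1, a marker of endothelium, was well above background on 1 of the 8 arrays. COL1A1, PTPRC, CD68 and CDH5, from the lists for the same cell types, were measured on all 8 arrays, DCN on the 4 SKOV3 arrays and VWF on 2 arrays. COL1A1 rose in the average of both lines, by 1.18 (adjusted p = 0.0296), and DCN had a change of 1.20 that did not pass (adjusted p = 0.0664), and the part of such markers in the results below was not tested. SFPQ itself gave a log2 signal of 3.64 and 3.91 in the MDAH controls, 2.45 under sh-SFPQ#2 and 2.10 under sh-SFPQ#3, and of 4.84 and 4.66 in the SKOV3 controls, 3.01 under sh-SFPQ#2 and 2.48 under sh-SFPQ#3. The silenced arrays lay below both controls in each line, and SFPQ fell with either shRNA over both lines, by 1.54 with sh-SFPQ#2 (SE 0.19, adjusted p = 0.0135 from limma) and by 1.97 with sh-SFPQ#3 (SE 0.19, adjusted p = 0.00134). The difference of -0.44 between the shRNAs did not pass (SE 0.22, adjusted p = 0.418).

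RefSeq promoter sequences (GRCh38.p14, 300 bases that cover the start and lie mostly before it) were at hand for 52 of the 60 genes. GGGCGG, the core of the GC box, was found on either strand in 32 of the 52 (61.5%), against 66.9% of the 12065 promoters of genes tested and 45.0% of all 35116 promoters, and TATAAA was found in 3 of the 52 (5.77%), against 6.66% of the promoters of genes tested. Below are the promoters of the long genes DOCK1, IMMP2L and VTI1A, 3 of the 4 with the lowest changes with sh-SFPQ#3, and of MSI2, the member called higher in MDAH cells, with each GGGCGG or its reverse complement in capitals, to show that windows with many matches and with none are among them. DOCK1 starts at chr10:126905178-126905477 on the plus strand, IMMP2L at chr7:111562443-111562742 on the minus strand, VTI1A at chr10:112446965-112447264 on the plus strand and MSI2 at chr17:57255601-57255900 on the plus strand, and these windows hold 3, 7, 0 and 1 matches, respectively.
DOCK1: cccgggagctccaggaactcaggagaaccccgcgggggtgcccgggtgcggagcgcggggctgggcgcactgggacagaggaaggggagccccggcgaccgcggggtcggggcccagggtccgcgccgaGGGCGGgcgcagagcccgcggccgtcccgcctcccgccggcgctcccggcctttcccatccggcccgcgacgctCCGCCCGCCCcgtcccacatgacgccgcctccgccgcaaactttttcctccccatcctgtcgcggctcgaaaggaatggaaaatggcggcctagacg
IMMP2L: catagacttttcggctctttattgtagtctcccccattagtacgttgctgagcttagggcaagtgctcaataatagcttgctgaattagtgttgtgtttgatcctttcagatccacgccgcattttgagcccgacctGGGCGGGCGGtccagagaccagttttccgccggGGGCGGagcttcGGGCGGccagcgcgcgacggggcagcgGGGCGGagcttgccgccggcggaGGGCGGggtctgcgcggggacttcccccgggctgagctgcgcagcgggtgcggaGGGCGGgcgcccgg
VTI1A: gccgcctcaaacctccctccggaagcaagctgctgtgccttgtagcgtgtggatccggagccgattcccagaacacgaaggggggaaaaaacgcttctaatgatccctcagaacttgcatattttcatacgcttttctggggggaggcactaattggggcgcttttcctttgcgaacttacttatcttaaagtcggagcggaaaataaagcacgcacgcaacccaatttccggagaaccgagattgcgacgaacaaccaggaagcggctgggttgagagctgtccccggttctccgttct
MSI2: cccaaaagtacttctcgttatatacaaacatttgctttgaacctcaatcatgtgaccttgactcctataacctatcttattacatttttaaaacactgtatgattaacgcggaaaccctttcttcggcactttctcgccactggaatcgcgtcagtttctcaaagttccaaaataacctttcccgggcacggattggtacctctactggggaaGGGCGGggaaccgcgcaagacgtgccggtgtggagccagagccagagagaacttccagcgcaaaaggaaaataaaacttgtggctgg

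The long genes were lower, in the median, on every silenced array. Set against the mean of the controls of its line, the median change of the 57 genes was -0.89 on the MDAH sh-SFPQ#2 array, -1.86 on the MDAH sh-SFPQ#3 array, -0.47 on the SKOV3 sh-SFPQ#2 array and -1.35 on the SKOV3 sh-SFPQ#3 array. The medians of the 15488 other genes tested were 0.09, 0.13, -0.03 and -0.05 on the same arrays. A change below -1, more than a 2-fold reduction, was seen for 26, 42, 17 and 33 of the 57 long genes, that is 45.6%, 73.7%, 29.8% and 57.9%, and for 4.86%, 8.83%, 3.33% and 6.42% of the other genes. Among the 36 long genes well above background on all 8 arrays the medians were -0.62, -1.39, -0.45 and -1.22. The changes spread widely, from -6.05 to 1.44 on the SKOV3 sh-SFPQ#3 array alone. The 4 silenced arrays are measured against the controls of their own line, so that the arrays of a line share their controls.

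**Figure D1:**
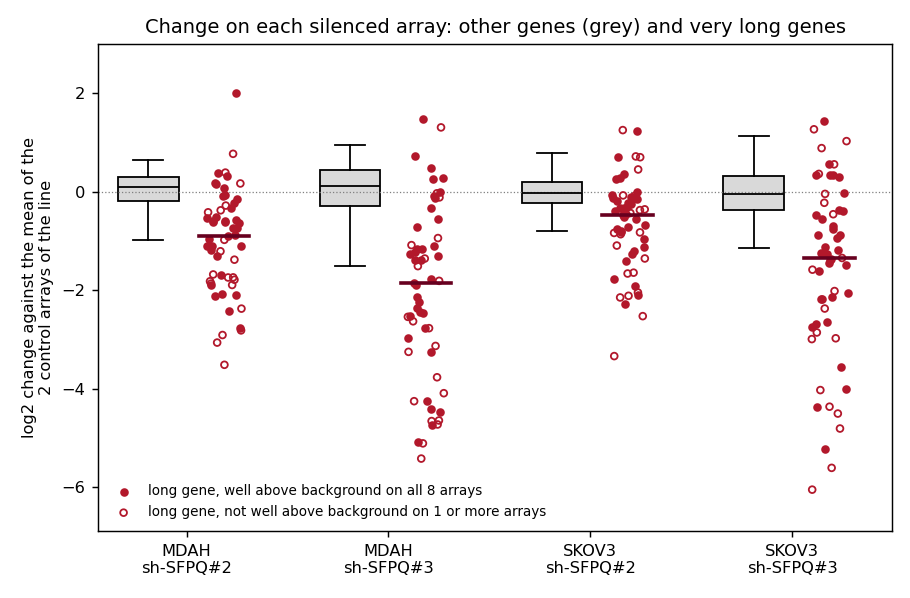
Log2 change on each of the 4 silenced arrays (x axis, line and shRNA) against the mean of the 2 control arrays of the line (y axis). Grey boxes show the quartiles of the 15488 other genes tested with whiskers at their 5th and 95th percentiles, points are the 57 long genes (filled, well above background on all 8 arrays; open, not well above background on 1 or more), and dark red bars are their medians of -0.89, -1.86, -0.47 and -1.35.

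The order of the arrays repeated from gene to gene. In MDAH cells both silenced arrays lay below both controls for 43 of the 57 long genes (75.4%), where this holds for 21.4% of all genes tested, and in SKOV3 cells likewise for 43 of 57, against 32.1% of all genes. For 39 long genes (68.4%), among them some with arrays near background, this was so in both lines, against 10.3% of all genes. For 37 long genes (64.9%) the sh-SFPQ#3 array lay below the sh-SFPQ#2 array, and this below both controls, in each of the lines, which was seen for 7.08% of all genes. Within MDAH cells alone this order held for 40 long genes, against 15.3% of all genes, and within SKOV3 cells alone for 42, against 24.7%. In the other direction, TNIK and MSI2 alone lay above both controls on each of the 4 silenced arrays, against 12.4% of all genes. This holds for the probe used for each, and the other probes of these genes did not show it.

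The long genes were also compared with genes of like signal. Each long gene was set against the other genes in the same one of 10 bins of mean signal, with a median change of -0.18 to 0.18 in MDAH cells, and of -0.17 to 0.04 in SKOV3 cells. In MDAH cells 49 of the 57 long genes lay below the median of their bin and 8 above it, with a median difference of -1.40. In SKOV3 cells 45 lay below and 12 above, with a median difference of -0.91.

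**Figure D2:**
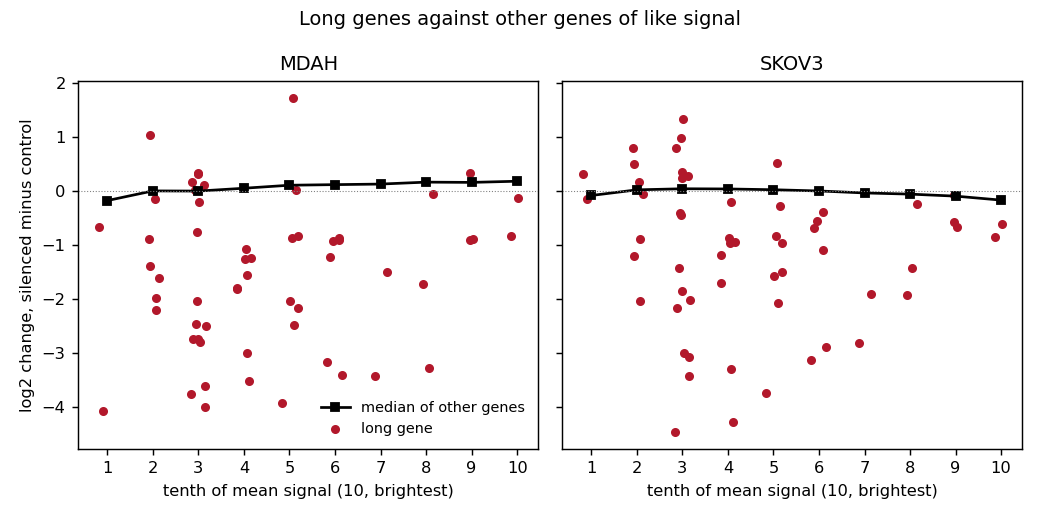
Log2 change, silenced minus control arrays (y axis), of each long gene (points) by its bin of mean log2 signal over the 8 arrays (x axis, bin 10 is the brightest), with the median of the other genes of that bin (line with squares), in MDAH and SKOV3 cells. 49 of 57 points in MDAH cells and 45 of 57 in SKOV3 cells lie below the line.

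Whether single genes changed was tested with limma. In MDAH cells 4 of the 57 long genes passed at an adjusted p under 0.05, FHIT, FBXL17 and MACROD2 lower and MSI2 higher, against 2.03% of all genes tested (1.61% lower and 0.418% higher). Each of the 3 lower genes had 1 or more silenced MDAH arrays not well above background. FHIT was well above background in the MDAH controls alone, so that it could come out only as lower. Among the 36 long genes well above background on all 8 arrays, 0 passed as lower and 1 as higher. In SKOV3 cells none passed, with 0.997% of all genes passing (0.573% lower and 0.425% higher) and with 29 of the 57, and 3033 of all 15545 genes, at an unadjusted p under 0.05. In this fit the 2 arrays of a silenced group carry different shRNAs, and the distance between the shRNAs, which was wide for these genes, counts as spread. Averaged over both lines, 21 of the 57 passed (20 lower and 1 higher), against 5.66% of all genes (3.64% lower and 2.02% higher), and the median average change was -1.06 against 0.04 for the other genes. With 1 array left out, the count in MDAH cells was 0 without either MDAH control, 9 without either silenced SKOV3 array and 26 without the MDAH sh-SFPQ#2 array, and in SKOV3 cells it was 12 without the SKOV3 sh-SFPQ#2 array and at most 1 otherwise. In the average it was 0 without either MDAH control, 1 without either SKOV3 control, 8 and 7 without the sh-SFPQ#3 array of MDAH and SKOV3 cells, and 39 and 31 without their sh-SFPQ#2 arrays.

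Within a line, the lowest changes among long genes well above background on all arrays compared did not pass. In MDAH cells these were IMMP2L at -3.93 (SE 1.03, adjusted p = 0.103), TRAPPC9 at -3.77 (SE 0.83, adjusted p = 0.0774), DOCK1 at -3.52 (SE 1.16, adjusted p = 0.15), PRKCA at -3.44 (SE 0.83, adjusted p = 0.0907) and SMYD3 at -3.41 (SE 0.84, adjusted p = 0.0922). In SKOV3 cells they were IMMP2L at -3.75 (SE 1.03, adjusted p = 0.135), VTI1A at -3.43 (SE 1.25, adjusted p = 0.207), AGAP1 at -3.31 (SE 0.96, adjusted p = 0.148), FTO at -3.14 (SE 0.90, adjusted p = 0.147) and JAZF1 at -3.09 (SE 0.81, adjusted p = 0.123). At the other end, after MSI2, BCAS3, FNDC3B, EXOC4 and DMD had changes from 0.18 to 0.33 in MDAH cells, and PDE4D, MSI2, TNIK, BCAS3 and SUPT3H from 0.29 to 1.34 in SKOV3 cells, and none of these passed.

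With the shRNA as a term in the fit and the line as a covariate, comparisons added after the data were seen gave the following counts. With sh-SFPQ#3 against the 4 controls, 38 of the 57 long genes passed, 37 lower and 1 higher, against 12.3% of all genes, 7.52% lower and 4.77% higher. With sh-SFPQ#2, 17 of the 57 passed, all lower, against 1.67% of all genes (1.43% lower and 0.238% higher). The median was -1.53 for sh-SFPQ#3 and -0.82 for sh-SFPQ#2, and 0.06 and 0.04 for the other genes. The 2 contrasts use the same controls. Leaving out any of the 8 arrays left between 34 and 39 long genes passing with sh-SFPQ#3 and between 4 and 21 with sh-SFPQ#2, with 4 without the MDAH and 6 without the SKOV3 sh-SFPQ#2 array, and 9 and 8 without MDAH control 1 and 2. Of the 38 genes, 26 were well above background on all 8 arrays. For the others the fitted change rests in part on arrays near background and is not an exact fold.

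**Figure D3:**
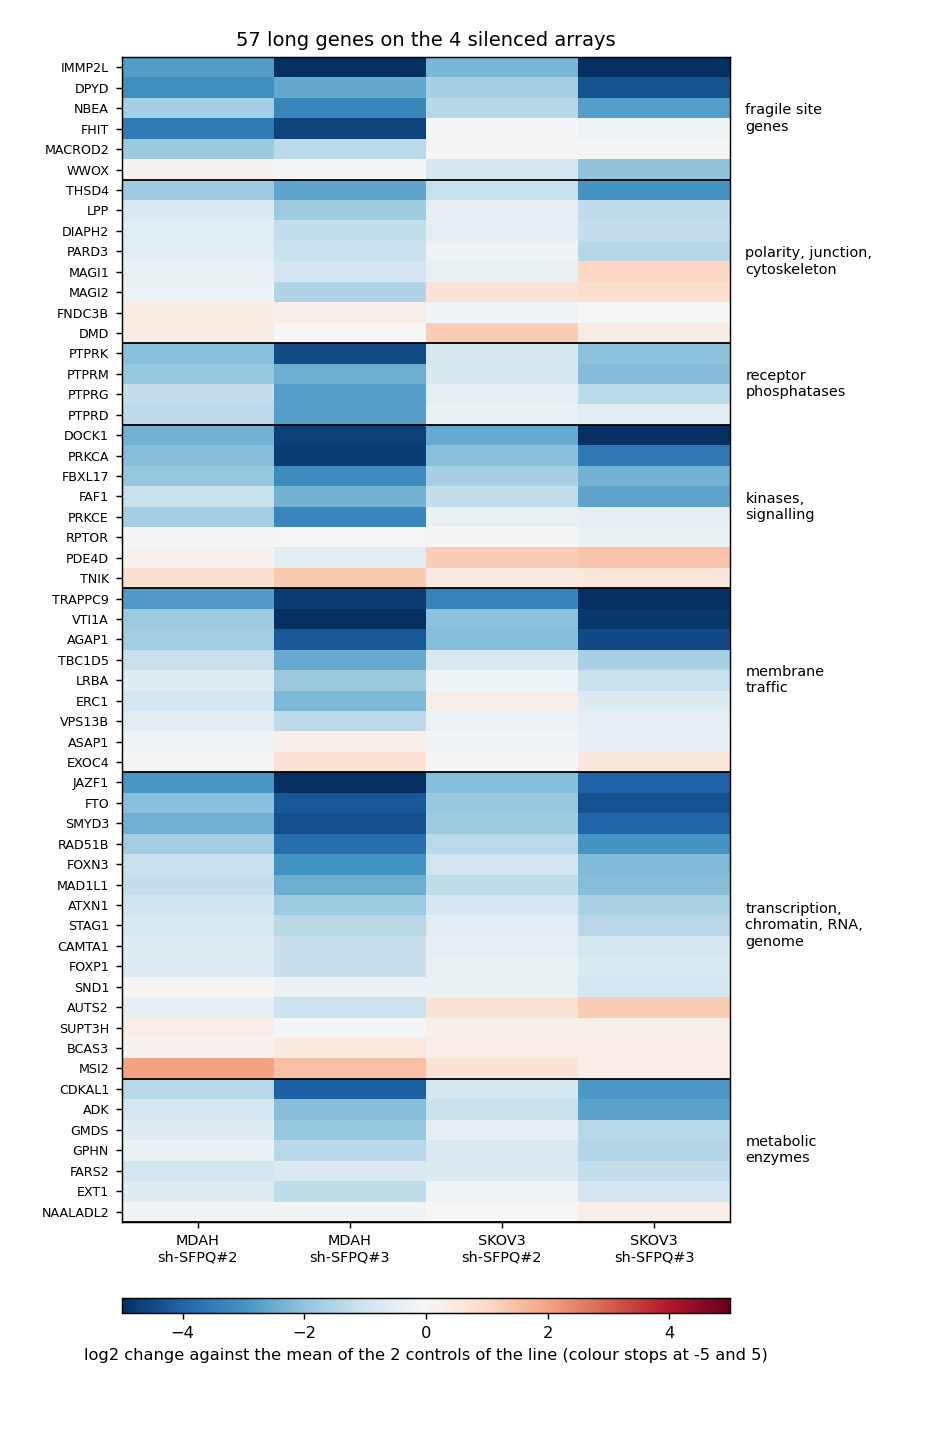
Log2 change of the 57 long genes tested (rows, grouped by what their products do and ordered by mean change in each group) on the 4 silenced arrays (columns), each against the mean of the 2 controls of its line; blue is lower and red is higher. Most rows are blue and darker with sh-SFPQ#3, and MSI2 and TNIK are red on all 4 arrays.

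Of 6 genes tested from common fragile sites, 5 passed in the average of both lines, all lower, and 3 with sh-SFPQ#3. Of all genes tested, 5.66% and 12.3% passed in these comparisons. IMMP2L, a peptidase of the inner mitochondrial membrane, gave a log2 signal of 2.91 and 2.62 in the MDAH controls, -0.01 under sh-SFPQ#2 and -2.32 under sh-SFPQ#3, and of 1.43 and 1.45 in the SKOV3 controls, -0.85 under sh-SFPQ#2 and -3.77 under sh-SFPQ#3. Every silenced array lay below the controls of its line, with sh-SFPQ#3 lowest in each. Over both lines IMMP2L fell 5.79-fold with sh-SFPQ#2 (log2 change -2.53, SE 0.17, adjusted p = 0.00281) and 35.6-fold with sh-SFPQ#3 (log2 change -5.15, SE 0.17, adjusted p = 5.36e-05). NBEA, which encodes the vesicle protein neurobeachin, fell by 1.56 with sh-SFPQ#2 (adjusted p = 0.0113) and by 3.0 with sh-SFPQ#3 (adjusted p = 0.0002) on the log2 scale.

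The other fragile site genes were not measured alike in the lines. FHIT, a hydrolase of diadenosine polyphosphates lost in many tumours, gave -0.83 and -1.28 in the MDAH controls, -4.57 under sh-SFPQ#2 and -5.70 under sh-SFPQ#3, where it was no longer well above background on either array, so that it was at least 7.99-fold lower in silenced MDAH cells (adjusted p = 0.00738). In SKOV3 cells FHIT was not well above background on any array. DPYD, the enzyme that breaks down uracil and fluorouracil, gave 2.37 and 1.85 in the SKOV3 controls, 0.47 under sh-SFPQ#2 and -2.26 under sh-SFPQ#3, which lay below the controls and did not pass in SKOV3 cells alone (log2 change -3.01, SE 0.79, adjusted p = 0.124). It was dim in MDAH cells, at least 1.84-fold lower after silencing without passing (adjusted p = 0.116). The other probe of DPYD, for another transcript, moved by 0.05 in SKOV3 cells without passing, and was not well above background in MDAH cells. MACROD2, which removes ADP-ribose from proteins, passed in MDAH cells, where its controls were near background at -4.21 and -4.45 and no fold can be given. On the same probe it stood at 0.23, -0.30, -0.11 and -0.08 in the SKOV3 cells, with overlapping groups. A second probe for the same transcript went from -2.83 and -3.04 in the SKOV3 controls to -5.35 and -6.38 after silencing. Its change of -2.93 did not pass (limma over all named probes, adjusted p = 0.0707). Both silenced values lay below the lowest signal well above background on their arrays. WWOX, an oxidoreductase with WW domains, gave -1.09 and -0.75 in the MDAH controls and -0.75 and -1.04 in silenced MDAH cells, and fell on neither array there outside the range of the controls. In SKOV3 cells its signal went from -2.87 and -2.66 to -3.60 and -4.78, without passing (log2 change -1.43, SE 0.37, adjusted p = 0.123).

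Of the signalling proteins, 4 of 8 tested passed with each shRNA, all lower, and they were DOCK1, PRKCA, FAF1 and FBXL17 in both cases. Of all genes tested, 1.67% passed with sh-SFPQ#2 and 12.3% with sh-SFPQ#3. DOCK1, an activator of the GTPase Rac, gave 1.60 and 1.15 in the MDAH controls, -1.0 under sh-SFPQ#2 and -3.29 under sh-SFPQ#3, and 1.58 and 1.44 in the SKOV3 controls, -1.02 with sh-SFPQ#2 and a sh-SFPQ#3 value of -4.54 that was not well above background. Its fitted change with sh-SFPQ#3, which rests in part on that dim array, was -5.36 (SE 0.32, adjusted p = 0.000201), and with sh-SFPQ#2 it was -2.45 (SE 0.32, adjusted p = 0.0158). PRKCA, the protein kinase C alpha, fell 4.32-fold with sh-SFPQ#2 (adjusted p = 0.0151) and 17.8-fold with sh-SFPQ#3 (adjusted p = 0.000291), and it was well above background on all 8 arrays. Its levels went from 3.01 and 2.95 to 0.85 and -1.77 in MDAH cells and from 4.11 and 3.95 to 1.94 and 0.47 in SKOV3 cells. FAF1, a ubiquitin-binding partner of the segregase VCP, fell by 1.15 with sh-SFPQ#2 and by 2.5 with sh-SFPQ#3. FBXL17, an F-box protein that selects substrates for ubiquitination, was also called in MDAH cells alone (log2 change -2.51, SE 0.43, adjusted p = 0.0444), with sh-SFPQ#3 not well above background there. PRKCE, a second protein kinase C, gave -1.28 and -1.35 in the MDAH controls and -3.0 and -4.57 after silencing, and -1.07 and -1.01 in the SKOV3 controls and -1.40 and -1.5 after silencing. It passed in neither line (adjusted p = 0.0514 in MDAH and 0.643 in SKOV3 cells), and the difference of -2.06 between the lines did not pass (adjusted p = 0.264). RPTOR, the mTOR complex subunit raptor, moved by -0.10 and -0.19 with the shRNAs. TNIK, a kinase of the Wnt pathway with 1 of 2 MDAH controls well above background, had a change of 0.93 with sh-SFPQ#3 that did not pass (adjusted p = 0.0508). The probe used for TNIK is named for a noncoding transcript of the gene and gave values from -4.88 to -2.71. The other probe of TNIK, for a coding transcript, moved by -0.39 in MDAH and 0.11 in SKOV3 cells, without passing. PDE4D, a cyclic AMP phosphodiesterase, had an array below both controls in MDAH cells with sh-SFPQ#3 (-0.99 against -0.27 and -0.60) and above both in SKOV3 cells (-1.35 against -3.35 and -2.23), and its change over both lines did not pass (adjusted p = 0.586).

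The 4 receptor tyrosine phosphatases span the membrane, and PTPRK and PTPRM bind their like on neighbouring cells. On the probe used for each, all 4 were lower on every silenced array than in the controls of their line. PTPRK went from 3.94 and 3.78 to 1.78 and -0.62 in MDAH cells and from 4.0 and 3.89 to 3.15 and 1.88 in SKOV3 cells. Its other probes moved by -0.76 and 1.05 in MDAH and by 0.57 and 0.78 in SKOV3 cells. The other probe of PTPRG moved by -0.06 in MDAH and -0.42 in SKOV3 cells, and none of these changes passed. PTPRM, PTPRK and PTPRG passed with sh-SFPQ#3, falling by 2.32 (adjusted p = 0.00217), 3.27 (adjusted p = 0.00805) and 2.06 (adjusted p = 0.00963) on the log2 scale, and PTPRD did not (log2 change -1.66, adjusted p = 0.0566). PTPRG was not well above background on either silenced MDAH array, so that its fall is not exact. None of the 4 phosphatases passed with sh-SFPQ#2, where their changes lay between -1.44 and -0.82. Their median change was -2.11 in MDAH and -1.16 in SKOV3 cells.

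Of 8 polarity, junction and cytoskeleton genes tested, 4 passed with sh-SFPQ#3, all lower, against 12.3% of all genes. The median change of the 8 genes with sh-SFPQ#3 was -0.76. THSD4, which helps to assemble microfibrils of the matrix, fell by 2.81 (adjusted p = 0.000711), LPP, a LIM protein of focal adhesions, by 1.53 (adjusted p = 0.00408), PARD3, a scaffold of the polarity complex, by 1.28 (adjusted p = 0.00452) and DIAPH2, a formin that nucleates actin, by 1.21 (adjusted p = 0.00217). THSD4 was not well above background with sh-SFPQ#3 in either line, so that its fall is not exact. DMD, whose product dystrophin ties actin to the membrane, gave 0.74 and 0.50 in the MDAH controls, 1.01 under sh-SFPQ#2 and 0.59 under sh-SFPQ#3, so that the groups overlapped, and it was not well above background on any SKOV3 array. FNDC3B, a membrane protein with fibronectin repeats, gave 3.16 and 3.07 in the MDAH controls and 3.49 and 3.40 after silencing, and between 3.45 and 3.58 on the SKOV3 arrays. MAGI1 and MAGI2, scaffolds of tight junctions, were not well above background on any SKOV3 array. In MDAH cells MAGI1 was at least 1.17-fold lower after silencing, with neither silenced array well above background, and MAGI2 moved by -0.90, and neither passed (adjusted p = 0.45 and 0.234).

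**Figure D4:**
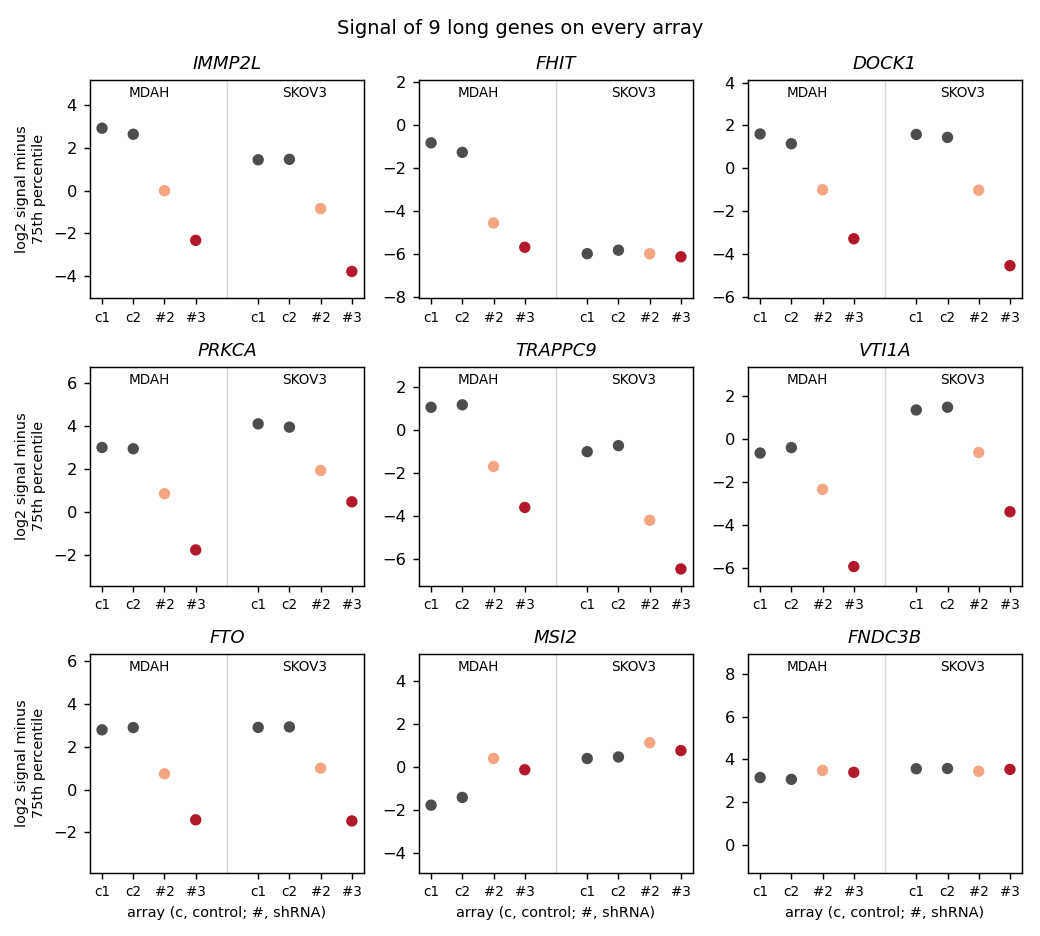
Log2 signal minus the 75th percentile of the array (y axis, same height of scale in every panel) of 9 long genes on the 8 arrays (x axis; c1 and c2, controls; #2 and #3, the shRNAs). IMMP2L, DOCK1, PRKCA, TRAPPC9, VTI1A and FTO step down from controls to #2 to #3 in both lines, FHIT does so in MDAH cells, MSI2 lies higher on the silenced arrays, and FNDC3B stays between 3.07 and 3.58.

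Membrane traffic genes held both strong falls and the sole member that passed as higher with sh-SFPQ#3. Of 9 tested, 7 passed with sh-SFPQ#3 as lower and 1 as higher, and 3 passed with sh-SFPQ#2, all lower. The shares over all genes tested were 12.3% with sh-SFPQ#3 and 1.67% with sh-SFPQ#2. TRAPPC9, a subunit of the TRAPP II tethering complex, gave 1.06 and 1.18 in the MDAH controls, -1.70 under sh-SFPQ#2 and -3.61 under sh-SFPQ#3, and -1.01 and -0.73 in the SKOV3 controls, -4.21 under sh-SFPQ#2 and -6.48 under sh-SFPQ#3. In SKOV3 cells neither silenced array was well above background, so that TRAPPC9 was at least 9.60-fold lower there, without passing in that line alone (adjusted p = 0.0707). VTI1A, a SNARE of the trans-Golgi, went from -0.66 and -0.41 to -2.35 and -5.96 in MDAH cells and from 1.35 and 1.48 to -0.64 and -3.40 in SKOV3 cells, and AGAP1, a GTPase-activating protein for Arf, from 0.26 and 0.13 to -1.55 and -4.06 and from 1.5 and 1.35 to -0.69 and -3.08. Both passed with each shRNA, VTI1A at -1.93 and -5.12 and AGAP1 at -1.93 and -4.38 with sh-SFPQ#2 and sh-SFPQ#3, and their MDAH sh-SFPQ#3 arrays were not well above background. For AGAP1 this holds for the probe used. Its other probe moved by 0.04 in MDAH and 0.48 in SKOV3 cells, without passing. TBC1D5, LRBA, ERC1 and VPS13B fell with sh-SFPQ#3 by 2.07, 1.49, 1.46 and 0.89. EXOC4, a subunit of the exocyst, rose by 0.64 with sh-SFPQ#3 (SE 0.13, adjusted p = 0.025), with -1.37 and -1.58 in the MDAH controls against -0.75, and -2.32 in each SKOV3 control against -1.75, and did not pass with sh-SFPQ#2 (log2 change -0.07, adjusted p = 0.858). Leaving out the MDAH sh-SFPQ#3 array moved it to 0.57 (adjusted p = 0.103), and it passed without MDAH control 1 alone of the 8 arrays. ASAP1 moved by -0.07 with sh-SFPQ#3.

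Of 15 tested genes for proteins of transcription, chromatin, RNA and the genome, 10 passed with sh-SFPQ#3 and 6 with sh-SFPQ#2, all lower. The shares over all genes tested were 12.3% and 1.67%. FTO, the demethylase of N6-methyladenosine in RNA, gave 2.79 and 2.89 in the MDAH controls, 0.74 under sh-SFPQ#2 and -1.41 under sh-SFPQ#3, and 2.90 and 2.92 in the SKOV3 controls, 1.0 under sh-SFPQ#2 and -1.46 under sh-SFPQ#3. The lines gave nearly the same series of values, and FTO fell 4.02-fold with sh-SFPQ#2 (adjusted p = 0.00281) and 19.9-fold with sh-SFPQ#3 (adjusted p = 5.36e-05), being well above background on all 8 arrays. SMYD3, a lysine methyltransferase, fell 4.28-fold (adjusted p = 0.0059) and 18.6-fold (adjusted p = 6.8e-05). RAD51B, a protein of homologous recombination, fell by 1.55 and 3.37 on the log2 scale, MAD1L1, of the spindle checkpoint, by 1.22 and 2.29, ATXN1, a repressor of transcription, by 0.90 and 1.70, and JAZF1, a zinc finger protein, by 2.53 and 4.57, with sh-SFPQ#2 and sh-SFPQ#3 in that order. With sh-SFPQ#3, RAD51B was not well above background in either line, and neither were ATXN1 and JAZF1 in MDAH cells. The falls of these genes with sh-SFPQ#3 are therefore not exact. FOXN3, STAG1, CAMTA1 and FOXP1 passed with sh-SFPQ#3 and not with sh-SFPQ#2, at -2.58, -1.38, -1.02 and -0.96. For CAMTA1 and FOXP1 this holds for the brightest probe. The other probes of FOXP1 moved by 0.47 and 0.48 in MDAH and by -0.09 and 0.94 in SKOV3 cells. Those of CAMTA1 moved by 0.26 and 0.27 in MDAH and by -0.36 and -0.01 in SKOV3 cells, and none of these changes passed. The other probe of FOXN3 moved by -2.91 in MDAH and -1.56 in SKOV3 cells, without passing. SND1, SUPT3H, BCAS3 and AUTS2 moved by -0.61, 0.10, 0.42 and 0.09 with sh-SFPQ#3 and did not pass.

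MSI2, an RNA-binding protein of the Musashi family, rose in MDAH cells and, over both lines together, in the average. Its brightest probe gave -1.79 and -1.43 in the MDAH controls, 0.39 under sh-SFPQ#2 and -0.13 under sh-SFPQ#3, and 0.39 and 0.46 in the SKOV3 controls, 1.12 under sh-SFPQ#2 and 0.76 under sh-SFPQ#3. The silenced arrays lay above the controls in both lines, by 1.73 in MDAH cells (SE 0.24, adjusted p = 0.0244) and by 0.52 in SKOV3 cells without passing (SE 0.24, adjusted p = 0.298). The other probe of the gene was brighter than this one on all 4 controls and dimmer on all 4 silenced arrays, so that the change itself decided which probe was brightest over the 8 arrays. With the mean of its probes the change was -0.17 in MDAH cells and -0.49 in the average, and neither passed.

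Of 7 metabolic and biosynthetic enzymes, 6 passed with sh-SFPQ#3, all lower, against 12.3% of all genes tested. CDKAL1, which modifies transfer RNA, fell by 3.48 (adjusted p = 0.000558), ADK, the adenosine kinase, by 2.41 (adjusted p = 0.000396), GMDS, of GDP-fucose synthesis, by 1.64 (adjusted p = 0.00137), GPHN, of molybdenum cofactor synthesis and of inhibitory synapses, by 1.43 (adjusted p = 0.00173), EXT1, which extends heparan sulfate, by 1.1 (adjusted p = 0.008) and FARS2, the mitochondrial phenylalanyl-tRNA synthetase, by 0.98 (adjusted p = 0.0246). CDKAL1 was not well above background on the MDAH sh-SFPQ#3 array, so that its fall is not exact. ADK also passed with sh-SFPQ#2, falling by 1.01 (adjusted p = 0.0384). NAALADL2 gave values between -2.82 and -2.19 on all 8 arrays and moved by 0.11 with sh-SFPQ#3.

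The shRNAs differed from each other in 16 of the 57 long genes, all lower with sh-SFPQ#3, against 1.42% of all genes tested (1.07% lower and 0.354% higher). The median difference between the shRNAs was -0.86 for the long genes and 0.00 for the other genes. Of the 16, 7 had 1 or more arrays not well above background, so that their differences are not exact and are not ranked. Among the genes measured on all 8 arrays, IMMP2L differed by -2.62 (SE 0.20, adjusted p = 0.00544) and FTO by -2.31 (SE 0.15, adjusted p = 0.00499). Among those with a dim sh-SFPQ#3 array, VTI1A differed by -3.18 (adjusted p = 0.00499), DOCK1 by -2.90 (adjusted p = 0.02), AGAP1 by -2.45 (adjusted p = 0.00499) and CDKAL1 by -2.35 (adjusted p = 0.0209). SMYD3, TRAPPC9, PRKCA, JAZF1, RAD51B, FOXN3, NBEA, ADK, FAF1 and GMDS also passed, with differences between -2.12 and -1.09. Each shRNA had 1 array per line, and without the sh-SFPQ#2 array of either line none of the 57 passed, with 9 and 6 passing without MDAH control 1 and 2. With the mean of its probes NBEA had a difference of 0.0773 in place of -1.44.

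A difference in the change between the lines was not detected for single long genes. None of the 57 long genes passed for a difference between the silencing contrasts of MDAH and SKOV3 cells, against 0.0965% of all genes (0.0579% lower and 0.0386% higher), and 9 of the 57, and 2321 of all 15545 genes, had an unadjusted p under 0.05, a like share. FHIT had the lowest difference, -3.93 (SE 0.51, adjusted p = 0.0698), with its probe at background in SKOV3 cells. Without the MDAH sh-SFPQ#2 array 3 long genes passed, and without the MDAH sh-SFPQ#3 array 1 did. The median change of the long genes was -1.39 in MDAH cells (0.10 for the other genes) and -0.89 in SKOV3 cells (-0.04 for the other genes).

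Before silencing, a smaller share of the long genes than of all genes tested passed between the lines. Of the 57, 24 passed between unsilenced MDAH and unsilenced SKOV3 cells, 13 higher in MDAH and 11 higher in SKOV3, against 57.5% of all genes (26.8% higher in MDAH and 30.7% higher in SKOV3). DMD, FHIT, MAGI2 and MAGI1 were not well above background in unsilenced SKOV3 cells and were at least 24.4-fold, 7.62-fold, 8.99-fold and 1.18-fold higher in MDAH cells. AUTS2, linked to neural development, was higher by 4.30 (adjusted p = 0.000228), with 1 of 2 SKOV3 controls well above background, and ERC1, a scaffold of the cell cortex, by 3.03 (adjusted p = 0.00164). In the other direction DPYD, MACROD2, FOXP1, PTPRM and MSI2 were lower in MDAH cells, at differences of -5.28, -4.29, -2.82, -2.80 and -2.03. The DPYD controls stood at -2.98 and -3.37 in MDAH and at 2.37 and 1.85 in SKOV3 cells.

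Several genes had more than 1 probe, and their probes did not always move together. Of the long genes, 30 had 2 or more probes tested, 67 probes in all, of which 50 were lower in silenced MDAH cells and 46 in silenced SKOV3 cells. All probes of a gene were lower in both lines for 15 of the 30. The probes of 10 genes in MDAH cells, and of 9 in SKOV3 cells, had opposite signs, and for none did probes pass in opposite directions. In a fit over all 20926 named probes tested, the probe of SUPT3H, of the SAGA histone acetylase complex, for NM_003599 fell by 2.40 in MDAH cells (SE 0.23, adjusted p = 0.00771) and by 1.47 in SKOV3 cells (SE 0.23, adjusted p = 0.0418). It was the brighter probe in the MDAH controls, at -1.35 and -1.92, and had 7 of the 8 arrays well above background. The probe for NM_181356, which was brighter over the 8 arrays together and so stood for the gene above, moved by 0.12 and 0.29. The files list these accessions as transcripts of the same gene.

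MSI2 was split in the same way. The probe for NM_170721 was the one that rose, whereas the probe for NM_138962 gave 0.83 and 0.78 in the MDAH controls, -0.54 under sh-SFPQ#2 and -2.01 under sh-SFPQ#3, and 0.94 and 0.77 in the SKOV3 controls, -0.70 and -1.88 after silencing. These silenced arrays lay below the controls, with changes of -2.08 in MDAH cells (SE 0.53, adjusted p = 0.093) and -2.14 in SKOV3 cells (SE 0.53, adjusted p = 0.108) that did not pass. AGAP1 moved by -3.0 and -3.31 on its probe for NM_001037131 and by 0.04 and 0.48 on that for NM_001244888, which was well above background on all 8 arrays. PARD3 fell further on its dimmer probe, with changes of -2.91 and -2.63 for NM_019619 against -0.84 and -0.85 for NM_001184792. PTPRK had 3 probes for the same accession, with changes of -3.28, -0.76 and 1.05 in MDAH cells and of -1.43, 0.57 and 0.78 in SKOV3 cells, so that the accession alone does not separate them. FNDC3B had a second probe that rose in MDAH cells, by 1.89 (SE 0.26, adjusted p = 0.0216). A second probe of PDE4D passed as higher in silenced SKOV3 cells (adjusted p = 0.0368), with both SKOV3 controls, at -5.59 and -4.84, below the lowest signal well above background on their arrays, so that no exact fold is given. The second probe of WWOX, for NM_016373, moved by -2.52 in MDAH cells without passing (SE 0.68, adjusted p = 0.103), where the probe used moved by 0.03.

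**Figure D5:**
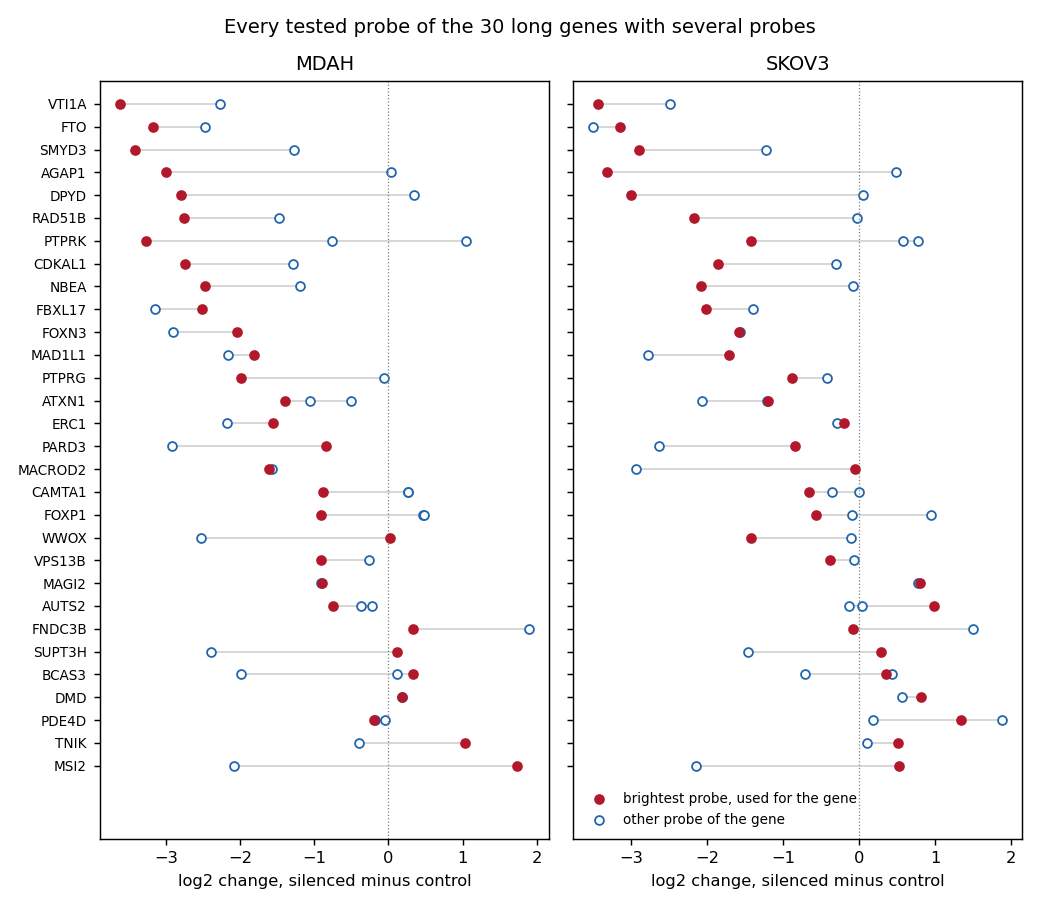
Log2 change, silenced minus control (x axis), of every tested probe of the 30 long genes with several probes (rows, ordered by the mean change of the probe used over both lines), in MDAH and SKOV3 cells; red, the brightest probe, used for the gene; blue circles, other probes. Lines join the probes of a gene, and those of MSI2, SUPT3H, AGAP1, DPYD and PTPRK cross 0.

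Relatives and complex partners of the long genes, known to lie in far shorter genes, were set beside them. This list was chosen with earlier results of these data known. Its genes were not matched to the long genes in signal, and their lengths were not measured here. Of 67 such genes, all tested, 2 passed as lower and 2 as higher in the average of both lines, against 5.66% of all genes, and their median average change was 0.09. With sh-SFPQ#3, 1 passed as lower and 4 as higher, against 12.3% of all genes (7.52% lower and 4.77% higher). Their median change with sh-SFPQ#3 was 0.15. IMMP1L, the partner subunit of IMMP2L, fell by 0.55 in the average (adjusted p = 0.0466), where IMMP2L fell by 3.84 (adjusted p = 0.0364). PTPRA, a receptor phosphatase of the same list, fell by 0.66 (adjusted p = 0.0306). PARD6A, of the polarity complex with PARD3, and TRAPPC6A, of the TRAPP complexes with TRAPPC9, rose in the average by 0.74 and 1.05 (adjusted p = 0.0234 and 0.0498). NBEAL2, a relative of NBEA, and MINK1, a relative of TNIK, rose by 1.03 and 0.82 with sh-SFPQ#3 (adjusted p = 0.0183 and 0.0196). EXT2, the partner of EXT1, had the lowest change of the list in SKOV3 cells, -0.92, and PTPRA the lowest in MDAH cells, -0.74, and neither passed there.

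Genes for transcription elongation and for the restraint of premature termination were also examined as a list, because they bear on whether polymerase reaches the end of a long gene. Of 44 such genes, SFPQ among them, 3 passed in MDAH cells, where SFPQ fell and ELL and XRN2 rose, and SFPQ alone passed in SKOV3 cells. The median change was 0.27 in MDAH and -0.06 in SKOV3 cells, against 0.10 and -0.04 for the genes other than the long ones, and 2.03% and 0.997% of all genes tested passed. ELL, an elongation factor, rose by 0.91 in MDAH cells (adjusted p = 0.0478) and by 0.84 with sh-SFPQ#3 (adjusted p = 0.0174), and XRN2, the exonuclease that releases polymerase after cleavage, by 0.82 in MDAH cells (adjusted p = 0.037). ELL2, a relative of ELL, fell by 0.94 with sh-SFPQ#3 (adjusted p = 0.00919).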

How the data were processed

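RNA of MDAH and SKOV3 cells was hybridized to 8 single-colour Agilent arrays, 2 in each of 4 groups. The deposited scanner files, per the file headers, hold spot intensity that Feature Extraction had corrected for background. The submitters' processing notes name Agilent Feature Extraction 10.7.3.1. A table of log2 values deposited by the authors matched quantile-normalized log2 signals centred on the median of each probe, and served as an alternative. No column was left unused for lack of a sample (0). The arrays came from 1 slide and 1 scan, with controls and silenced cells at different positions, so that position and group cannot be told apart.

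Without control and outlier spots, the mean over the spots of each probe was taken, and the 75th percentile of the array was subtracted from log2(signal). The brightest named probe stood for a gene, and a gene was tested where well above background on both arrays of 1 or more groups. The tests were those of limma 3.58.1 in R 4.3.3 with Benjamini-Hochberg adjustment over 15545 genes, and scripts were tested on simulated data. A 4-group fit gave the contrasts within and between lines. A fit on the shRNA with line as a covariate gave the shRNA contrasts, of which those against the controls were added after the data were seen. With 2 arrays against 2, 6 labelings exist and no exact permutation test could pass, so that calls rest on limma's shared estimate of spread. "At least" folds were computed where no array of the dimmer group was well above background, against the higher of the dim probe's own value and the lowest signal well above background on that array. Array data give no counts, and precision is limited by how many there are.

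The long genes and the other lists were chosen with earlier results of these data known. Every long gene could be named, with full values for those called and for the 5 highest and 5 lowest changes in each line among genes measured on all arrays compared, and other lists are represented by the genes called and by their extremes. Alternatives covered scaling, background correction, the filter on dim probes, the probe of a gene, the prior, the pairing, the bins of signal, each line fitted alone and each array left out.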

Additional observations from a re-analysis of the deposited data

Results flagged for a closer look

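The shRNAs differed from each other in 16 of the 57 long genes over both lines, by limma's test of sh-SFPQ#3 against sh-SFPQ#2 with the line as a covariate. All 16 were lower with sh-SFPQ#3. SFPQ itself was 0.44 lower on the log2 scale with sh-SFPQ#3 (log2 difference -0.44, adjusted p = 0.418), and the MDAH sh-SFPQ#3 array had the lowest 75th percentile of signal, 244, whereas that of the SKOV3 sh-SFPQ#3 array was 466. The part of either in this difference was not tested.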

How the results depend on the processing

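The median change of the long genes was below 0 in both lines under every alternative run, and leaving out 1 array at a time it lay between -1.86 and -0.89 in MDAH and between -1.35 and -0.47 in SKOV3 cells. Centring each array on its median moved the median of the other genes in MDAH cells from 0.10 to 0.22, and that of the long genes from -1.39 to -1.28. Counts of genes passing moved more. The 4 long genes called in MDAH cells (2.03% of all genes) became 15 with normexp and quantile normalization (4.01%), 1 of 36 with genes well above background on all 8 arrays (0.921%), 2 without a filter (1.15%), 7 with the mean of a gene's probes (2.29%) and 8 with a robust and trended prior (2.64%). In SKOV3 cells 0 (0.997%) became 5 with normexp (2.07%) and 1 with the robust prior (1.55%). In the average 21 (5.66%) became 34 with normexp (9.22%), 5 without a filter (1.80%) and 32 with the robust prior (8.71%). The 16 genes that differed between shRNAs (1.42%) became 8 without a filter (0.405%), and the 17 with sh-SFPQ#2 (1.67%) became 11 of 36 on all 8 arrays (2.28%). With that filter 31 of 36 lay below genes of like signal in MDAH cells, and the genes with probes of opposite sign went from 10 to 4 in MDAH and from 9 to 4 in SKOV3 cells, with fewer genes tested. Leaving out 1 array gave between 0 and 26 calls for MDAH, 0 and 12 for SKOV3, 0 and 39 for the average, 0 and 3 in the difference between lines, 19 and 31 between unsilenced lines, 0 and 18 between shRNAs, 4 and 21 with sh-SFPQ#2 and 34 and 39 with sh-SFPQ#3. The fewest calls within MDAH cells came without either MDAH control and the most, 26, without the MDAH sh-SFPQ#2 array, and the most in SKOV3 cells, 12, without the SKOV3 sh-SFPQ#2 array. Likewise 49 to 51 long genes lay below genes of like signal in MDAH and 45 to 47 in SKOV3 cells, and 9 to 13 and 9 to 14 had probes of opposite sign.

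The replicate number names the control or the shRNA and the labels tie it to nothing else. Deviations of same-numbered arrays correlated across genes at 0.0778 for the controls and 0.363 for the shRNAs, over only 2 pairs. With the number as a replicate block, 38 long genes passed for MDAH (5.52% of all genes), 23 for SKOV3 (4.43%), 42 for the average (11.4%) and 38 between unsilenced lines (61.5%). This fit takes the distance between shRNAs out of the spread by its construction.

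With the mean of a gene's probes, MSI2 turned to -0.17 within MDAH, -0.81 within SKOV3 and -0.49 for their average, NBEA to 0.0773 between shRNAs, BCAS3 to -0.51 in MDAH cells and SUPT3H to -0.59 in SKOV3 cells. With 1 array left out, EXOC4 ran from -0.0695 (without the sh-SFPQ#3 array) to 0.72 and DMD from -0.0334 (without the sh-SFPQ#2 array) to 0.39 in MDAH cells, and SUPT3H from -0.0349 (without control 1) to 0.61 in SKOV3 cells. Other causes of these moves were not tested. Of the values of long genes that were called in a comparison or were among its extremes, under other settings 1040 kept direction and side of the threshold, 19 newly passed, 100 no longer passed and 6 turned, and with 1 array left out the numbers were 826, 7, 292 and 3. Signal near background limits the size of a fall that can be read.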
